A study of Homo sapiens with 4 samples.

Results

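The 14-3-3 adaptor family is encoded in humans by 7 genes, YWHAB, YWHAE, YWHAG, YWHAH, YWHAQ, YWHAZ and SFN, and all 7 were found by gene name among the 50868 genes of the deposited table. The family was taken up because of YWHAB: it was chosen by the measured differences of that gene with DSF, which were positive both without and with IM, so those differences are given as a description. 6 of the 7 genes passed a filter on low values (mean FPKM of 1 or more), as did 11004 genes in all, and SFN did not. FPKM, fragments per kilobase of transcript, scaled to the fragments of the library, is a level corrected for length and depth.

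KBM5, an established chronic myeloid leukemia line, labelled as blood, that carries the BCR-ABL fusion kinase, was sequenced after combined treatment (IM-DSF), DSF alone, IM alone or no drug (CTR), with 1 stranded mRNA library in each group. IM and DSF are not spelled out in the labels and are read here as imatinib, an inhibitor of the BCR-ABL kinase, and disulfiram, an aldehyde dehydrogenase inhibitor whose metabolite chelates copper. No dose or duration is given in the labels, all 4 groups are the same cell line, and the untreated cells are the control for both drugs. With no replicate, each difference is between a pair of libraries and carries no p-value.

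14-3-3 proteins form cup-shaped dimers, and each subunit binds a short motif that holds a phosphorylated serine or threonine in a client protein. Binding can hold the client in the cytoplasm, cover a localisation or catalytic surface, or keep it away from phosphatases. Known clients include the death protein BAD, FOXO transcription factors, CDC25 phosphatases and, through its serine-rich BCR part, the BCR-ABL fusion. Most paralogs pair with one another, whereas SFN, 14-3-3 sigma, pairs mostly with itself and is known as an epithelial, p53-induced member.

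The promoter sequences of 3 genes are shown because YWHAB and YWHAH are the members that passed the size threshold described below and YWHAG is the most abundant. RefSeq windows of 300 bases (250 before and 50 after the start of the gene, build GRCh38.p14) were matched for 6 of the 7 members, all but YWHAZ. Printed is the stretch that lies before the first base of the gene in the deposited table, 5′ to 3′ on the strand of the gene. Capitals mark matches to a searched motif. They come from chr20:44885455-44885675 (plus strand) for YWHAB, chr22:31944285-31944460 (plus strand) for YWHAH and chr7:76359032-76359241 (minus strand) for YWHAG.
YWHAB: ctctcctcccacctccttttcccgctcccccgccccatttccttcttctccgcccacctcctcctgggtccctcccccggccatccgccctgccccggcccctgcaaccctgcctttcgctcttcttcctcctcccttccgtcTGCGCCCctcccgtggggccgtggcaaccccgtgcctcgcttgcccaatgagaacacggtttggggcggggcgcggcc
YWHAH: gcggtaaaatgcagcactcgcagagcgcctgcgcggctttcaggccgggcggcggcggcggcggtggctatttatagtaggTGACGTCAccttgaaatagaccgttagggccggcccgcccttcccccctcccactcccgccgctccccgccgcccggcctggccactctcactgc
YWHAG: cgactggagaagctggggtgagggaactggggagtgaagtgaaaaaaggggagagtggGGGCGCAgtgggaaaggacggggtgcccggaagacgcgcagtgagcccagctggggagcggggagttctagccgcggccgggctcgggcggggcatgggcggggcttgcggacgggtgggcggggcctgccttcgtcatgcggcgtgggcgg

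7 motifs of stress and signalling factors were searched on both strands of the whole windows. The YWHAH window held the palindromic cyclic AMP response element TGACGTCA, known to be bound by CREB and ATF proteins, at position -169 from the RefSeq start, and 1.85% of 35116 promoter windows held it. The windows of YWHAB (position -107) and YWHAG (position -192, on the other strand, so that its complement is printed) each held 1 match to TGCNCNC. This is a loose pattern searched for the metal response element, and 55.9% of all windows held it. YWHAE held 2 matches to that loose pattern and SFN 1. In the 6 members' windows no match was found to the antioxidant response element TGACNNNGC (13.3% of all windows), the heat shock element of 3 units (0.49%), the E-box CACGTG (7.26%), the CEBP-ATF response element TGATGCAA (0.866%) or the STAT5 motif TTCNNNGAA (7.66%). No matches overlapped one another in the printed stretches.

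The difference with DSF was read from DSF against CTR in cells without IM and from IM-DSF against IM in cells with it, contrasts that share no library. Levels in the 4 libraries were read first, then the difference in log2(FPKM + 1), called higher or lower at 1 log2 unit or more. A ratio is that of the deposited FPKM values, and its 95% interval (exact conditional binomial) covers counting error only.

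YWHAB, which encodes 14-3-3 beta (ENSG00000166913; chromosome 20, 44885676 to 44908532, plus strand), had 32.6 FPKM in IM-DSF, 26.8 in DSF, 11.6 in IM and 9.31 in CTR. Both libraries from DSF-treated cells lay above both libraries from cells without DSF. The DSF to CTR ratio was 2.87 (95% interval 2.57 to 3.22), a log2 difference of 1.43. The IM-DSF to IM ratio was 2.82 (2.56 to 3.12), a log2 difference of 1.42. YWHAB thus stood 21st and 22nd from the top of the 11004 genes, in the contrasts that chose it. The departure from additivity, the IM-DSF against IM difference minus the DSF against CTR difference, was -0.01 for YWHAB, and it is computed from the same chosen contrasts.

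The IM differences of YWHAB were not the ones that chose it, and they were small in both backgrounds. They are computed from the same 4 libraries as the contrasts that chose it, so they are not separate observations. The gap between them is the departure from additivity given above. The ratio was 1.24 for IM against CTR (1.09 to 1.41) and 1.22 for IM-DSF against DSF (1.13 to 1.32), with log2 differences of 0.28 in both, under the size threshold. The IM-DSF to CTR ratio was 3.51 (3.14 to 3.92, log2 1.71), 28th from the top. It shares the CTR library with the DSF against CTR ratio and the IM-DSF library with the IM-DSF to IM ratio. Its rank is therefore not separate from the differences that chose YWHAB.

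**Figure D1:**
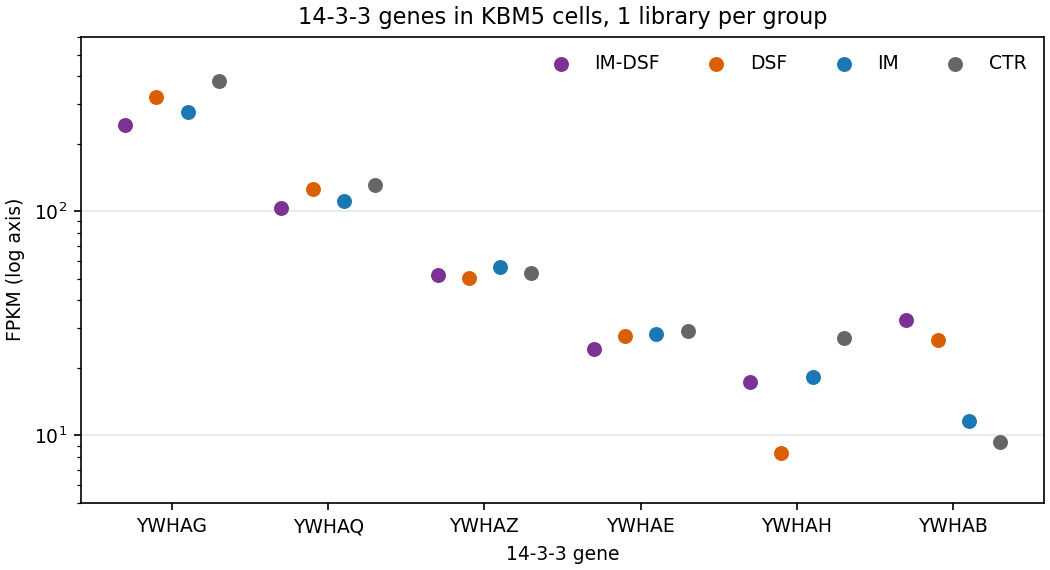
Level of each 14-3-3 gene past the filter (FPKM, log axis) in the IM-DSF, DSF, IM and CTR libraries, 1 point per library, with genes in falling order of their CTR level. YWHAB was above 26 FPKM only in the libraries from DSF-treated cells, and YWHAH was lowest in DSF alone, at 8.31 FPKM.

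YWHAH, which encodes 14-3-3 eta (ENSG00000128245; chromosome 22, 31944461 to 31957603, plus strand), had 17.3 FPKM in IM-DSF, 8.31 in DSF, 18.2 in IM and 27.1 in CTR. DSF alone had the lowest level, CTR the highest, and both IM libraries lay between them, close to each other. YWHAH fell in DSF against CTR, with a ratio of 0.307 (0.264 to 0.356) and a log2 difference of -1.59, the 16th lowest of 11004. In IM-DSF against IM its ratio was 0.951 (0.834 to 1.08), an interval that includes 1.

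With IM the YWHAH ratio was 0.672 against CTR (0.600 to 0.751, log2 -0.55) and 2.08 against DSF (1.77 to 2.46, log2 0.98), the second just under the size threshold. The IM difference of YWHAH was therefore below 0 in cells without DSF and above 0 in cells with DSF, and both intervals exclude 1. Its departure from additivity was 1.52, the 42nd highest of 11004 genes. In IM-DSF against CTR the ratio was 0.639 (0.565 to 0.722), close to that of IM alone. That contrast shares the CTR library with DSF against CTR and IM against CTR. DSF against CTR, IM-DSF against DSF and the departure from additivity all use the single DSF library, so they are not separate observations.

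**Figure D2:**
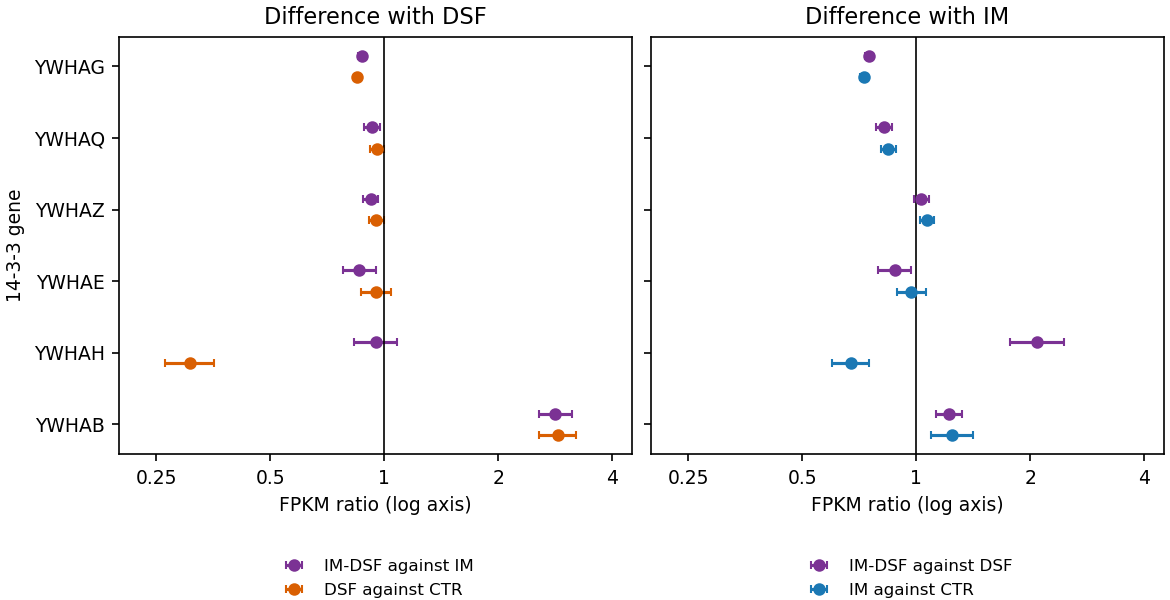
FPKM ratios (log axis, 1 marks no difference) of the 6 genes for DSF (left panel, IM-DSF against IM and DSF against CTR) and IM (right panel, IM-DSF against DSF and IM against CTR), with bars for 95% intervals of counting error. YWHAB lay near 2.8 in both DSF contrasts, while YWHAH lay at 0.307 in DSF against CTR and at 0.951 in IM-DSF against IM.

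In DSF against CTR, 1 of the 6 measured members was called higher (YWHAB) and 1 lower (YWHAH), where 0.545% of all 11004 genes were called higher, 0.573% lower and 1.12% in either direction. In IM-DSF against IM 1 was called higher (YWHAB) and none lower, against a background of 0.7% higher and 1.74% in either direction. The YWHAB calls in both contrasts follow from the choice of the family and cannot be weighed against these shares. The members' median log2 difference was -0.07 and -0.11 in these contrasts, with 5 of 6 genes below 0 in each, and the median over all genes was 0.00 and -0.00. None was called in IM against CTR, where 2.43% of genes were, or in IM-DSF against DSF, where 2.37% were. The members' medians were -0.14 and -0.07 there, beside 0.02 and 0.01 over all genes. In IM-DSF against CTR, 1 member (YWHAB) was called higher with a background of 2.54% higher and 4.28% in either direction. That call shares libraries with both contrasts that chose YWHAB. In the departure from additivity 1 (YWHAH) was called higher with a background of 1.38% higher and 3.06% in either direction.

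**Figure D3:**
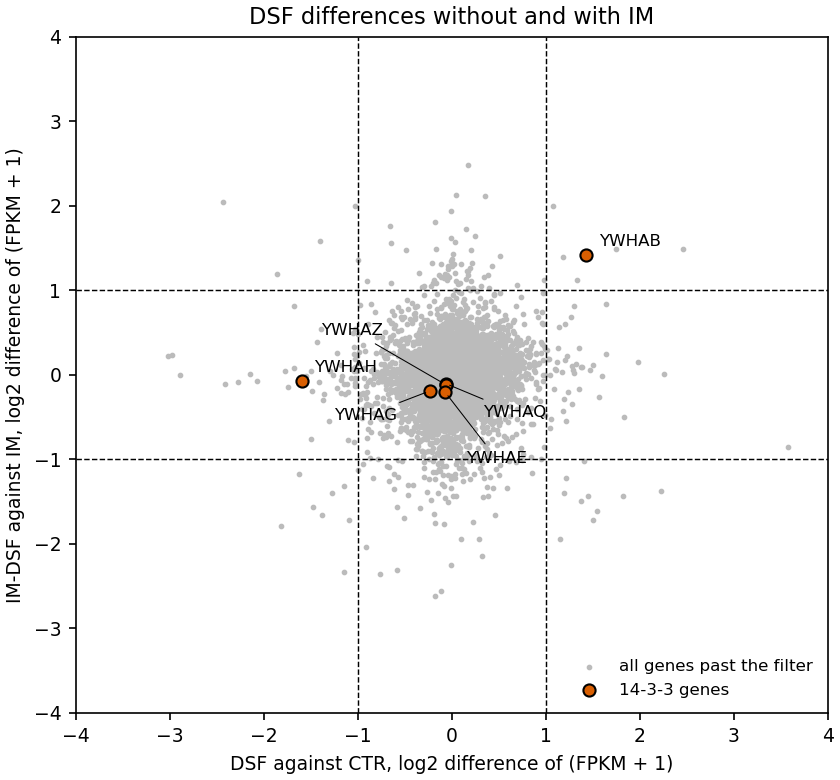
Log2 difference of (FPKM + 1) in DSF against CTR (horizontal) and IM-DSF against IM (vertical) for the genes past the filter (grey) and the 6 measured 14-3-3 genes (orange), with dashed lines at the size threshold of 1 log2 unit. YWHAB, at 1.43 and 1.42, passed it on both axes and YWHAH, at -1.59 and -0.07, on the horizontal axis only, while the other 4 lay near the middle (5 genes fall outside the plotted range of 4).

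YWHAG, which encodes 14-3-3 gamma (ENSG00000170027; chromosome 7, 76326794 to 76359031, minus strand), was the most abundant member in every library. It had 243 FPKM in IM-DSF, 325 in DSF, 278 in IM and 383 in CTR, from 11349, 17901, 16480 and 20809 fragments in the same order. Every treated library was below CTR, and the combination was lowest. The ratio was 0.849 in DSF against CTR (0.832 to 0.866) and 0.875 in IM-DSF against IM (0.854 to 0.896). With IM it was 0.727 against CTR (0.712 to 0.742) and 0.749 against DSF (0.732 to 0.767). The IM-DSF to CTR ratio was 0.636 (0.621 to 0.651, log2 -0.65), still under the size threshold. The departure from additivity was 0.04, so each drug's ratio was about the same without and with the other.

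YWHAQ, which encodes 14-3-3 theta (ENSG00000134308; chromosome 2, 9583972 to 9631014, minus strand), is a paralog first described in T cells. By the members' own rows, without pseudogenes, it was second in every library with 103 FPKM in IM-DSF, 126 in DSF, 111 in IM and 132 in CTR. Its libraries had the same order as those of YWHAG. The ratio was 0.956 in DSF against CTR (0.916 to 0.998) and 0.930 in IM-DSF against IM (0.885 to 0.976). It was 0.844 in IM against CTR (0.808 to 0.882) and 0.820 in IM-DSF against DSF (0.782 to 0.861). No YWHAQ difference passed the size threshold, and the one furthest from 0 was -0.35 on the log2 scale, in IM-DSF against CTR.

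YWHAZ, which encodes 14-3-3 zeta (ENSG00000164924; chromosome 8, 100916525 to 100953388, minus strand), a broadly expressed paralog known for binding BAD, had 52.0 FPKM in IM-DSF, 50.5 in DSF, 56.4 in IM and 52.9 in CTR. Its 4 libraries lay within a narrow range. The IM-DSF to CTR ratio was 0.984 (0.939 to 1.03). The ratio was 0.954 in DSF against CTR (0.913 to 0.998), 0.922 in IM-DSF against IM (0.882 to 0.964), 1.07 in IM against CTR (1.02 to 1.11) and 1.03 in IM-DSF against DSF (0.984 to 1.08). Summed with the rows named as its pseudogenes, YWHAZ had 124 FPKM in IM-DSF, 138 in DSF, 132 in IM and 144 in CTR. These sums were above YWHAQ in every library. Its IM ratios were then 0.917 and 0.894, on the other side of 1.

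YWHAE, which encodes 14-3-3 epsilon (ENSG00000108953; chromosome 17, 1344272 to 1400378, minus strand), a paralog that favours dimers with other members, had 24.4 FPKM in IM-DSF, 27.8 in DSF, 28.3 in IM and 29.1 in CTR. The combination was lowest. The IM-DSF ratio was 0.860 to IM (0.778 to 0.949), 0.878 to DSF (0.793 to 0.971) and 0.836 to CTR (0.755 to 0.924). The DSF to CTR ratio of 0.952 (0.868 to 1.04) and the IM to CTR ratio of 0.971 (0.888 to 1.06) have intervals that include 1. Summed with the rows named as its pseudogenes, YWHAE had a DSF to CTR ratio of 0.818. No YWHAE or YWHAZ difference passed the size threshold.

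SFN (ENSG00000175793; chromosome 1, 26863138 to 26864457, plus strand) was listed at 0 in IM-DSF, IM and CTR and at 0.206 FPKM, 4 fragments, in DSF. At this depth its level was not distinguishable from 0, and no fold is given.

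Summed over the family, transcripts came to 473 FPKM in IM-DSF, 564 in DSF, 503 in IM and 632 in CTR. The sums, shares and order given here use the members' own rows, so reads listed under pseudogenes such as YWHAZP3 are left out. The sum was 0.892 times CTR in DSF, 0.939 times IM in IM-DSF, 0.796 times CTR in IM and 0.747 times CTR in IM-DSF. YWHAG made most of that difference: without it the sum was 230 FPKM in IM-DSF, 239 in DSF, 226 in IM and 250 in CTR. YWHAG held 51.4% of the family sum in IM-DSF, 57.6% in DSF, 55.2% in IM and 60.5% in CTR. YWHAQ stayed near a constant share, 21.8%, 22.3%, 22.0% and 20.8% in the same order of libraries.

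YWHAB held 6.91% of the sum in IM-DSF, 4.74% in DSF, 2.30% in IM and 1.47% in CTR. It was the 4th most abundant member in IM-DSF, the 5th in DSF and the 6th in IM and in CTR. YWHAH held 3.66% in IM-DSF, 1.47% in DSF, 3.62% in IM and 4.29% in CTR. The pair changed places in the order: YWHAB was below YWHAH in both libraries without DSF and above it in both libraries with DSF. This order is not separate from the YWHAB differences that chose the family. YWHAH itself was nearly level in IM (18.2 FPKM) and IM-DSF (17.3 FPKM). In the DSF library YWHAB (26.8 FPKM) was nearly level with YWHAE (27.8 FPKM), a neighbour in the order from which it did not clearly stand apart.

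**Figure D4:**
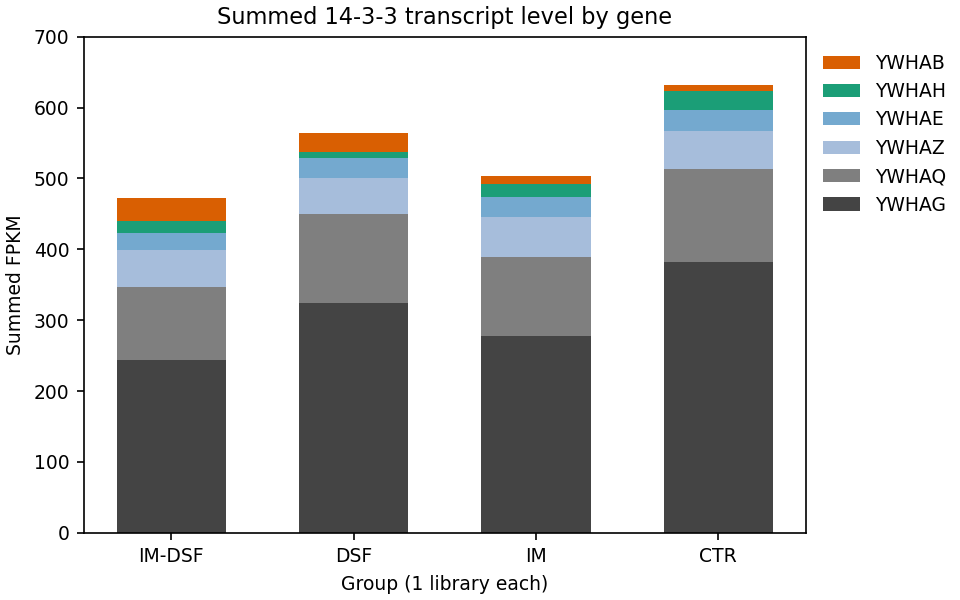
Summed FPKM of the 14-3-3 genes in the IM-DSF, DSF, IM and CTR libraries, stacked by gene. The bars reach 473, 564, 503 and 632 FPKM, YWHAG is the lowest and thickest segment of each, and the YWHAB segment on top holds 6.91%, 4.74%, 2.30% and 1.47% of them.

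The members differ in how directly their FPKM can be read as fragment counts. In GENCODE 29, YWHAG (3750 bases) and SFN (1320 bases) have 1 annotated transcript each, and their values were whole numbers of fragments within 0.05. YWHAB has 8 annotated transcripts of 410 to 5867 bases, and at none of these lengths were its values whole in all 4 libraries. The same holds for YWHAH (6 transcripts, 502 to 1879 bases), YWHAQ (5), YWHAE (13) and YWHAZ (23), although single values came out whole at some lengths. Shares were taken over genes of several exons with the coordinates of GENCODE 29, leaving out values of the fewest and the most fragments. Between 9.82% and 10.2% of values were whole in genes with several transcripts, against 99.1% to 99.4% with 1 transcript. The lower share is about what a window of 0.05 on either side of a whole number takes in without whole counts. How the authors set a length for genes with several transcripts, and in which annotation, is not given in the sources used here. The part of a shift between transcripts in the YWHAB and YWHAH differences was not tested. Their intervals used the longest protein-coding transcript, at which YWHAB had about 1263 fragments in IM-DSF, 1223 in DSF, 568 in IM and 420 in CTR. Among protein-coding genes, 1.03% of 8827 with several transcripts were called in DSF against CTR and 2.42% of 538 with 1 transcript. In IM-DSF against IM the shares were 1.19% and 2.23%.

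**Figure D5:**
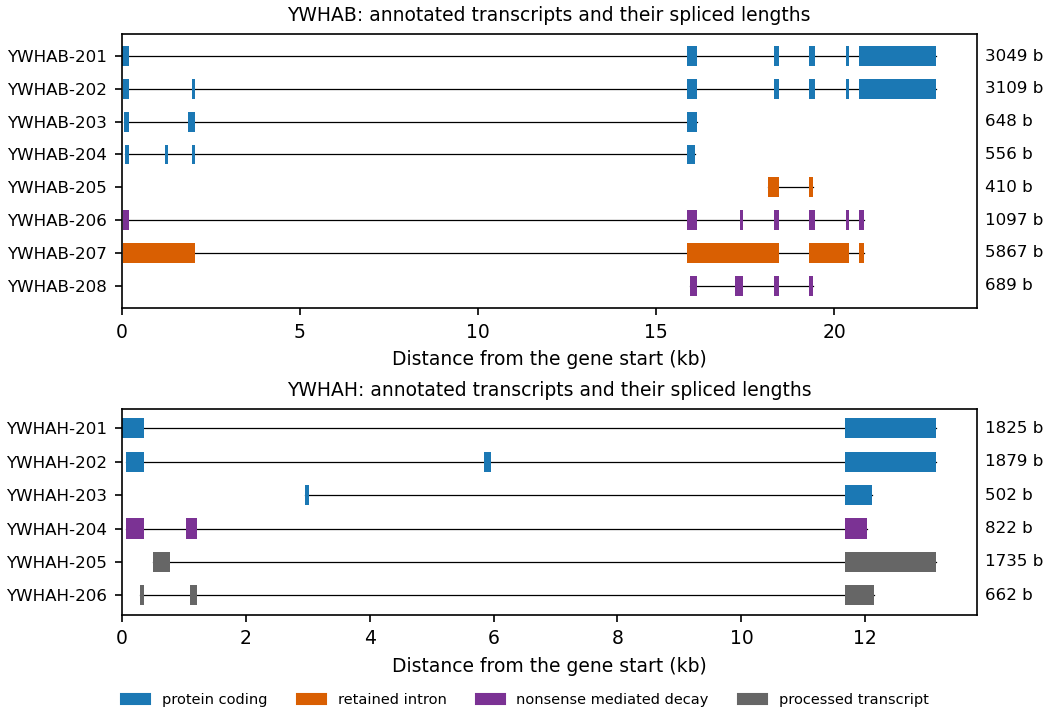
GENCODE 29 transcripts of YWHAB (top) and YWHAH (bottom), with exons as boxes at their distance from the gene start in kb, coloured by transcript type, and the spliced length in bases at the right. The lengths span 410 to 5867 bases in YWHAB and 502 to 1879 bases in YWHAH.

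Near-identical copies touch the members unequally. YWHAB and YWHAG shared 0 of their 8355 and 3701 stretches of 50 bases with the transcripts of any other gene. YWHAH shared 2.24%, all with Z82190.2, another GENCODE gene, which is not analysed here. YWHAE shared 2.88%, YWHAQ 1.73% and YWHAZ 6.77%, the last with 206 genes, and the division of such reads by the authors' counting is uncertain.

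17 rows are named as pseudogenes of a member, and 7 of them were listed at 0 in all 4 libraries. YWHAZP3, a processed copy of YWHAZ, was listed above YWHAZ itself, at 65.0 FPKM in IM-DSF, 76.2 in DSF, 66.3 in IM and 79.5 in CTR. YWHAEP1 had 6.74 FPKM in IM-DSF, 5.26 in DSF, 9.28 in IM and 11.1 in CTR, a DSF against CTR difference of -0.95 on the log2 scale, just under the size threshold. YWHAZP2 had 4.53, 8.97, 6.69 and 8.14 FPKM in the same order of libraries, and YWHAZP5 had 1.54, 1.58, 1.30 and 2.55 FPKM. These 4 were the named pseudogenes past the filter on low values. AL627402.1, a YWHAZ pseudogene by its description and not by its name, had 4.05 FPKM in IM-DSF, 5.64 in DSF, 4.13 in IM and 4.78 in CTR. It is not in the sums with pseudogene rows. The copies of YWHAB were at most 0.621 FPKM, and YWHAB summed with them gave a ratio of 2.84 in DSF against CTR and 2.68 in IM-DSF against IM.

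Genes beside YWHAB and YWHAH did not move with them past the size threshold. PABPC1L, a cytoplasmic poly(A)-binding protein that starts 1530 bases beyond YWHAB on the same strand, had 1.94 FPKM in IM-DSF, 1.71 in DSF, 1.85 in IM and 1.05 in CTR. On the other side of YWHAB the nearest gene, PGBD4P2, was listed at 0 throughout. C22orf24, which overlaps YWHAH on the opposite strand, was listed at 0 in all 4 libraries. AL008719.1, 5754 bases from YWHAH on the same strand, was also listed at 0 throughout. DEPDC5, a repressor of mTORC1, lies 37427 bases from YWHAH on its other side, on the same strand. It had 1.82, 1.69, 1.74 and 1.63 FPKM in IM-DSF, DSF, IM and CTR. HSPB1, a small heat shock protein 22499 bases from YWHAG on the other strand, had 98.5 FPKM in IM-DSF, 156 in DSF, 143 in IM and 170 in CTR, the same order of libraries as YWHAG.

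The genes whose profile over the 4 libraries was nearest to YWHAB, by Euclidean distance of centred log2(FPKM + 1), are a description of 4 values each. The nearest of 11004 was RAB5C, an early endosome GTPase, at a distance of 0.29, with 16.9 FPKM in IM-DSF, 17.0 in DSF, 7.20 in IM and 6.13 in CTR. RAB40C, a RAB-like subunit of a ubiquitin ligase, followed at 0.45 with 3.62, 3.85, 1.63 and 0.969 FPKM in the same order. CAB39, the MO25 scaffold of the LKB1 kinase, followed at 0.46, AL713999.1 at 0.47 and the processed pseudogene AC090589.1 at 0.58.

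Among 38 listed phosphoprotein clients of 14-3-3, 33 passed the filter. None was called in DSF against CTR or in IM-DSF against IM, where 1.12% and 1.74% of all genes were, shares at which a list of this size would hold few calls or none. In DSF against CTR 24 clients lay above 0 and 9 below with a median of 0.06, while 5503 of all 11004 genes lay above 0. In IM-DSF against IM 17 lay above and 16 below with a median of 0.00, while 49.7% of all genes lay above 0. FOXO3, a transcription factor that 14-3-3 holds in the cytoplasm, had 7.32 FPKM in IM-DSF, 6.07 in DSF, 6.32 in IM and 3.26 in CTR. Its log2 difference was 0.73 in DSF against CTR, 0.78 in IM against CTR and 0.96 in IM-DSF against CTR, and all were under the size threshold. BAD, which 14-3-3 keeps from BCL2 proteins at the mitochondrion, had 2.97 FPKM in IM-DSF, 4.59 in DSF, 3.94 in IM and 3.18 in CTR. WEE1, the kinase that restrains mitotic entry, had 4.55 FPKM in IM-DSF, 5.42 in DSF, 7.04 in IM and 6.05 in CTR, a log2 difference of -0.54 in IM-DSF against IM.

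CDC25A, the phosphatase that activates cyclin-dependent kinases, was the only client past the size threshold with IM. It had 11.8 FPKM in IM-DSF, 25.6 in DSF, 12.1 in IM and 31.3 in CTR, and both IM libraries lay below both libraries without IM. Its log2 difference was -1.30 in IM against CTR and -1.05 in IM-DSF against DSF, and it was the 1 client of 33 called in each, where 2.43% and 2.37% of all genes were called. Of the 33 clients, CDC25A included, 26 lay above 0 in IM against CTR (median 0.14), where 53.1% of all genes did with a median of 0.02. In IM-DSF against DSF 21 of the 33 lay above 0 (median 0.06), where 51.7% of all genes did with a median of 0.01. IRS2, the insulin receptor substrate, has 1 annotated transcript and had 27.2 FPKM in IM-DSF, 18.6 in DSF, 24.9 in IM and 14.3 in CTR. FOXO4 had 4.76, 3.45, 5.77 and 3.31 FPKM and HDAC4, a class IIa deacetylase, 3.31, 2.13, 2.77 and 1.74 FPKM in the same order. CDC25B, the paralog of CDC25A, had 5.78 FPKM in IM-DSF, 9.78 in DSF, 8.43 in IM and 9.82 in CTR, under the size threshold in every contrast.

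Of 29 listed kinases, with their scaffolds, that write 14-3-3 binding sites, 26 passed the filter. CAB39 was the 1 called higher in DSF against CTR and in IM-DSF against IM, where 0.545% and 0.7% of all genes were, with 14.4 FPKM in IM-DSF, 14.7 in DSF, 4.85 in IM and 5.94 in CTR. Its log2 difference was 1.18 in DSF against CTR and 1.39 in IM-DSF against IM. PIM1, a survival kinase that phosphorylates BAD, was the 1 called in IM against CTR and in IM-DSF against DSF, both times lower, where 2.43% and 2.37% of all genes were called in either direction. It had 2.63 FPKM in IM-DSF, 8.18 in DSF, 4.67 in IM and 16.0 in CTR. Its log2 difference was -1.59 in IM against CTR and -1.34 in IM-DSF against DSF. SGK3, a lipid-directed relative of AKT, had 7.56 FPKM in IM-DSF, against 4.66 in DSF and 4.59 in IM, with log2 differences of 0.60 and 0.61. The list's median was 0.00 in DSF against CTR, -0.05 in IM-DSF against IM, 0.02 in IM against CTR and -0.02 in IM-DSF against DSF.

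All 12 listed phosphatase subunits that can clear 14-3-3 sites passed the filter and none was called in any of the 5 contrasts, with medians between -0.08 and 0.01. From 1.12% to 4.28% of all genes were called in them, shares at which a list of 12 would hold few calls or none. PPP2R1B, a scaffold subunit of PP2A, had 6.39 FPKM in IM-DSF, 8.40 in DSF, 6.88 in IM and 10.9 in CTR. PPM1A, a metal-dependent phosphatase, had the opposite order, with 4.13, 2.95, 3.28 and 2.32 FPKM. Neither passed the size threshold.

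The labelled cell type was checked against marker genes. 8 of 10 myeloid and blast markers reached 1 FPKM in every library (MPO, AZU1, CD33, PTPRC, CSF3R, SPI1, CEBPA and LYZ), and the stem and progenitor markers CD34 and KIT did not. Of 8 erythroid, 4 megakaryocyte and 6 lymphoid markers, none reached 1 FPKM in any library, and their sums were at most 0.703, 0.486 and 0.589 FPKM. The myeloid sum was 1123 FPKM in IM-DSF, 647 in DSF, 948 in IM and 509 in CTR. LYZ, the lysozyme of granulocytes and monocytes, made up 599, 217, 399 and 154 FPKM of it in the same order of libraries. Of the 8 markers past the filter, 6 lay above 0 in DSF against CTR (median 0.19), and 4 lay above and 4 below in IM-DSF against IM (median -0.04). None was called in either. All 8 lay above 0 in IM against CTR, where 3 were called higher (AZU1, CSF3R and LYZ). In IM-DSF against DSF 6 lay above 0 and 2 were called higher (CSF3R and LYZ). Of all genes, 2.43% and 2.37% were called in either direction in these IM contrasts. The part of these markers in the 14-3-3 differences was not tested. In bulk RNA, a change in the share of cells of a kind and a change in RNA per cell cannot be told apart. The libraries held 12443255 fragments in IM-DSF, 14704466 in DSF, 15810651 in IM and 14506549 in CTR, as recovered from the FPKM steps of single-exon genes.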

How the data were processed

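KBM5 mRNA was sequenced from 4 libraries, 1 per group, and the authors deposited 1 table of FPKM for 50868 genes, with a value column per library, per the file headers. The aligner HISAT2 2.0.4 and the build GRCh38.p14 come from the submitters' processing notes. A stranded library kit is named in the labels' protocols. The counter, its annotation, its use of strand and its handling of transcripts were not given in the sources used here. The members and gene lists were chosen with earlier results of these data known.

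Differences were taken on log2(FPKM + 1), a scale on which low genes show smaller changes, over 11004 genes whose mean FPKM was 1 or more. A gene was called at 1 log2 unit or more. With 1 library per group, no significance test was run. In single-exon genes with 1 transcript, FPKM times length gave whole fragments (within 0.05) for 99.9% or more of 3458 to 3602 genes per library, and so the fragments behind each library. Fragments per gene, at the longest protein-coding transcript, gave 95% intervals that cover counting error only. PCR copies are not independent molecules, which makes the intervals too narrow. GENCODE 29, which matched 50111 of the gene identifiers, gave transcripts and strands, and RefSeq gave promoter windows.

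The rule for named genes took in all members, their pseudogenes, their nearest or overlapping genes and the 5 genes with the profile nearest to YWHAB. From each list it took the called genes and, in each contrast described, up to 4 more with the largest differences. Of the pseudogenes and neighbours, those at low levels or beside members that passed no threshold are mostly left unnamed. The settings varied were the pseudocount (0.1) and the filter (none, or a mean FPKM of 5 or more). The scale was varied too (TPM, median-of-ratios factors or trimmed-mean factors), and members were summed with the rows named as their pseudogenes. The scripts were tested on simulated data. Python 3.11.15, NumPy 2.4.6, pandas 2.3.3, SciPy 1.17.1 and matplotlib 3.10.9 were used.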

Additional observations from a re-analysis of the deposited data

Results flagged for a closer look

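YWHAH, the gene of 14-3-3 eta, moved in opposite directions with IM in the 2 backgrounds. The IM-DSF to DSF ratio was 2.08 (17.3 FPKM in IM-DSF and 8.31 in DSF), and the IM to CTR ratio was 0.672 (18.2 FPKM in IM and 27.1 in CTR). The IM-DSF to DSF ratio uses the same DSF library as the fall of YWHAH in DSF against CTR, so these are not separate observations. Each side of a ratio is 1 library, so that the difference between the ratios was not tested. The part of transcript assignment, to which YWHAH with its 6 annotated transcripts is exposed, was not tested either.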

How the results depend on the processing

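No paired analysis was possible because each group has 1 library and the labels give no replicate numbers. Leaving out a library was not possible either. 36 differences of the 6 members (5 contrasts and the departure from additivity) were recomputed in 7 alternatives. The changes of filter alter only which genes are kept, so they could not move a member's difference. Summing with pseudogene rows could not move YWHAG or YWHAH, which have no named copies. The called YWHAB differences ranged from 1.41 to 1.51 in DSF against CTR, from 1.35 to 1.53 in IM-DSF against IM and from 1.67 to 1.80 in IM-DSF against CTR. The YWHAH difference in DSF against CTR ranged from -1.70 to -1.59, and its departure from additivity from 1.52 to 1.68. YWHAH in IM-DSF against DSF (0.98) was called with a pseudocount of 0.1 (1.05) and in TPM (1.07), which makes the members called there 1 and not 0. No other member changed side, and the differences that changed sign were all uncalled.

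The number of genes called depended on the setting in every contrast, and the order here is DSF against CTR, IM-DSF against IM, IM against CTR, IM-DSF against DSF, IM-DSF against CTR and the departure from additivity. It was 123, 191, 267, 261, 471 and 337 as reported. A pseudocount of 0.1 gave 309, 355, 600, 540, 894 and 654. A mean of at least 5 FPKM, which tests fewer genes, gave 53, 89, 114, 122, 228 and 132. TPM gave 252, 296, 475, 466, 779 and 536. With no filter, which tests more genes, the departure count was 517. TPM made every value larger while the pseudocount stayed at 1, since FPKM summed to only 277648 (IM-DSF) to 287546 (IM) per library. The part of this in the TPM counts was not tested. The scaling factors themselves differed between the libraries of a contrast by at most 0.05 log2 units.

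Depth and design limit these results in a few ways. A single library per group gives no measure of the spread between cultures. SFN, at 4 fragments or none, was below what this depth can compare. Intervals of the 5 members with several transcripts rest on an assumed length.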
